A study of Mus musculus with 17 samples.

Results

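The genes described here encode the CD3 chains, the CD4 and CD8 coreceptors and the proteins that sit closest to the T cell receptor (TCR). They are Cd3d, Cd3e, Cd3g, Cd247, Cd4, Cd6, Cd8a, Cd8b1, Zap70 and Themis, 10 of the 55450 genes in the count table, and they were chosen by name, each through its Ensembl identifier. Every library held at least 156 reads of each of them, and all 10 passed the filter on low counts in each comparison.

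The data were bulk RNA-seq of whole AB12 tumors. AB12 is a transplantable mouse mesothelioma cell line, and the cells were injected into the peritoneum of 8-week-old female BALB/c mice, so that all groups carried the same tumor in the same strain. Untreated tumors were taken at day 6 (d6, n = 3), day 10 (d10, n = 5) and day 14 (d14, n = 3), which the study uses as early, intermediate and advanced growth. Tumors of mice given 200 µg anti-CTLA4 (clone 9D9) into the peritoneum were taken at d10 (n = 3) and d14 (n = 3). The labels give a general protocol of 4 injections, 2 per week over 2 weeks. For treated d14 tumors the study describes injections on days 6 and 10, while the days for treated d10 tumors are not given in the sources used here. The model is 1 cell line, and no isotype control antibody is named for the untreated mice.

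The TCR itself has no signaling tail. It is held on the membrane by the CD3 γ, δ and ε chains and a homodimer of the ζ chain (Cd247), whose cytoplasmic motifs are phosphorylated by the kinase LCK and then bind the kinase ZAP70. CD8, made of α and β chains, and CD4 bind MHC class I and class II respectively and bring LCK to the receptor, THEMIS tunes the strength of the signal, and CD6 is a surface scaffold. In mice, CD8α without CD8β also occurs on a subset of dendritic cells and on some other lymphocytes, and CD4 occurs on some myeloid and plasmacytoid cells, so that these transcripts are not restricted to T cells.

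In GRCm38, Cd3g (chr9:44969572-44980431, minus strand), Cd3d (chr9:44981786-44987339, plus strand) and Cd3e (chr9:44998740-45009627, minus strand) lie side by side. The Cd3d and Cd3g starts are 1355 bases apart and point away from each other. Cd8b1 (chr6:71322788-71337494) and Cd8a (chr6:71373427-71379173) lie on the plus strand of chromosome 6, with 35933 bases between them, and Cd4 (chr6:124864692-124888221, minus strand) is elsewhere on that chromosome. Cd247 (chr1:165788681-165877277) and Zap70 (chr1:36761798-36782818) are on the plus strand of chromosome 1, Cd6 (chr19:10789341-10830058) is on the minus strand of chromosome 19 and Themis (chr10:28668360-28883818) on the plus strand of chromosome 10. All 10 are annotated as protein coding. Exons of Cd247 overlap exons of Pou2f1 on the opposite strand, and whether reads were counted by strand is not given in the sources used here, so Cd247 values are less certain. The other genes with overlapping exons held 16 to 90 reads over all 17 libraries, and genes overlapping only introns held 0 to 66.

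RefSeq promoters of build GRCm38.p6 were given for 7 of the 10 genes, all but Cd4, Cd6 and Cd8b1. The 200 bases before the starts of Cd3d and Cd3g, which diverge, and of Cd8a, which had the strongest increase among these 7 genes, are shown because their transcripts changed together over time. Capitals mark matches on either strand to CACCTG, an E-box, and AGGAAGT, an ETS-type motif.
Cd3d (chr9:44981586-44981785, plus strand): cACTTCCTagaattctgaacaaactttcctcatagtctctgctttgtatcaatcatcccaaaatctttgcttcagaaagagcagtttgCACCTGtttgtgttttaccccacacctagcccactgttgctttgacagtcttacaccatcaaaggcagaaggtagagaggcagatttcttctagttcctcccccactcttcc
Cd3g (chr9:44980432-44980631, minus strand): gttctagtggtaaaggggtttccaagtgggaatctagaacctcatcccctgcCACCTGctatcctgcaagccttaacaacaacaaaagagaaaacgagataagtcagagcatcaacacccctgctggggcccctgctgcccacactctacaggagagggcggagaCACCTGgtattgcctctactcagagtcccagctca
Cd8a (chr6:71373227-71373426, plus strand): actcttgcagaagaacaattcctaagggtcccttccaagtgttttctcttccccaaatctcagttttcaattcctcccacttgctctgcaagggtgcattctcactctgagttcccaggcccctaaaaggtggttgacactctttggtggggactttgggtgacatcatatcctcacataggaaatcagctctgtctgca
With positions counted from the start of transcription, the first match in the Cd3d sequence begins at -199 and reads as the reverse complement of AGGAAGT, and its E-box begins at -112. The Cd3g sequence holds E-boxes that begin at -148 and -35, and the Cd8a sequence holds neither motif. Over 250 bases before each start, CACCTG occurred in 4 of the 7 genes (Cd247, Cd3d, Cd3g and Zap70) and in 17.2% of 32851 promoters, or 19.4% of 27025 genes with at least 1 promoter. AGGAAGT occurred in Cd247, Cd3d and Cd3e, 3 of the 7 genes, and in 7.69% of promoters (8.8% of genes). TGTGGT, a RUNX-type motif, occurred in 1 gene, at one of the Zap70 starts, and in 14.0% of promoters (15.9% of genes). These matches describe the sequence, and binding was not measured.

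Libraries held 46371577 to 96759833 gene-assigned reads, with a median of 72413343. Libraries also fell into sets that cross the design. The count of the microRNA gene Mir6236 was 3387 to 12332 in untreated d6 and in untreated d10 replicates 1 to 3, 141 to 176 in untreated d10 replicates 4 and 5, 205 to 1244 in treated d10, and 5 to 24 in all d14 tumors. The mitochondrial share of reads was 1.38% to 2.02%, 0.880% to 0.895%, 0.576% to 0.969% and 1.17% to 1.39% in the same order. Sequencing was done on more than 1 instrument, and which library was run on which is not given in the sources used here. Comparisons of untreated d14 with d10 or d6 tumors therefore cannot be told apart from the library set. Within a set, d10 against d6 can be made with replicates 1 to 3, and treated against untreated d14 with all tumors. For treated against untreated d10, replicates 4 and 5 are nearest in mitochondrial share, but their Mir6236 counts lie below those of treated d10. The sets were read from these counts and shares and are not named in the labels. The lymph node and naive T cell list (5 genes measured) summed to 138 to 154 CPM (read counts scaled to a common library total) at d6 and 29.4 to 92.0 CPM in the other groups. By gene, 2 of its 4 tested genes were higher at untreated d10 than at d6, with log2 fold changes from -1.43 to 1.93 (median -0.23). Thymocyte markers (4 genes) stayed under 1 CPM in sum, at 0.756 to 0.851 CPM at d6 and 0.201 to 0.449 CPM in the other groups. Rag2 was at 0 in every tumor of all groups but treated d14. Rag1 was at 0 in every untreated d10, untreated d14 and treated d10 tumor, but not at d6. The tumor marker list (5 mesothelial and mesothelioma genes) was present in all tumors, at 1334 to 2948 CPM.

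Cd8 transcripts were the members that differed most between d6 and d10, and Cd4 was the exception. Untreated d6 tumors had 7.30, 7.68 and 7.33 CPM of Cd8a, after normalization by library composition, and untreated d10 tumors had 56.8, 68.4, 60.8, 78.3 and 69.0 CPM. Every d10 tumor was far above every d6 tumor. Cd8b1, which encodes the β chain of the conventional CD8 coreceptor, was at 5.07, 4.56 and 4.78 CPM at d6 and at 41.4, 44.6, 35.8, 56.6 and 45.9 CPM at d10. Cd8b1 rose by a log2 fold change of 3.25 ± 0.16 (SE, adjusted p = 1.6e-05) and Cd8a by 3.19 ± 0.13 (adjusted p = 7.6e-06). Tests were edgeR quasi-likelihood fits over all expressed genes with Benjamini-Hochberg adjustment, and a gene is called here when its adjusted p is below 0.05 and its log2 fold change is beyond 1 in size. In bulk tissue a change in the number of cells of a type and a change in RNA per cell cannot be told apart.

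**Figure D1:**
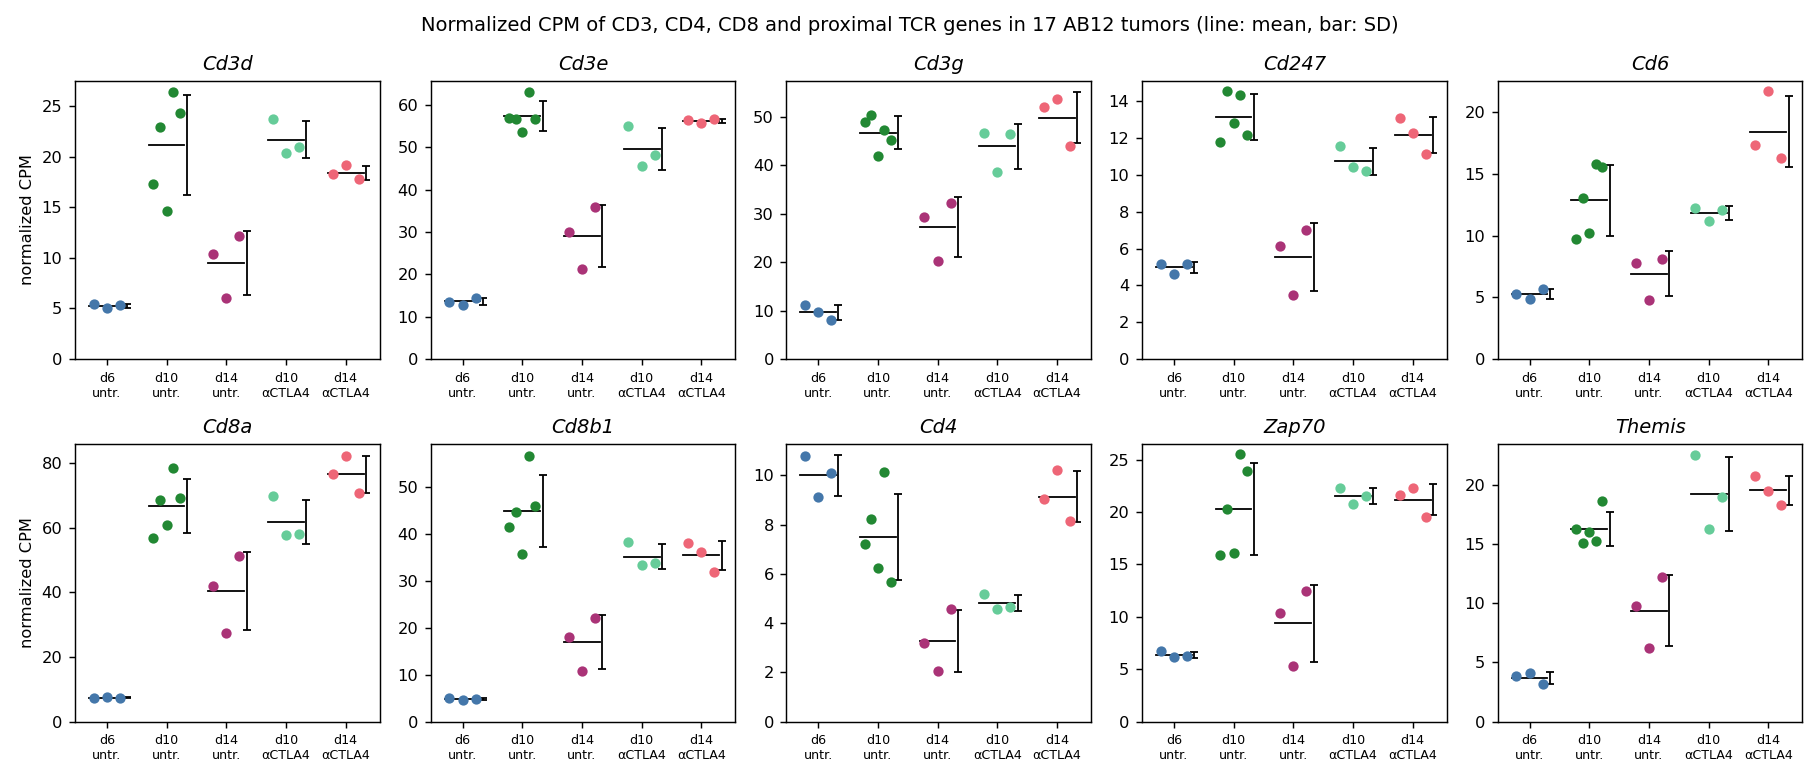
Normalized CPM (vertical axis, linear, from 0) of the 10 genes in each of 17 tumors, by group on the horizontal axis; points are tumors, lines are group means and bars are SD. Untreated d6 tumors are lowest or among the lowest for all genes but Cd4, untreated d14 tumors lie below untreated d10 tumors, and treated d14 tumors lie above untreated d14 tumors for all 10 genes.

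The 3 CD3 chains rose too, with smaller fold changes than the CD8 chains. The Cd8a to Cd3e count ratio was 0.547 ± 0.047 (SD, n = 3) at d6 and 1.16 ± 0.099 (n = 5) at d10 without overlap (log2 difference 1.08, exact p = 0.0179, adjusted p = 0.0833). Cd3e went from 13.6, 12.8 and 14.5 CPM at d6 to 57.0, 56.7, 53.7, 63.2 and 56.6 CPM at d10 (log2 2.10 ± 0.10, adjusted p = 1.5e-05). Cd3g went from 11.1, 9.72 and 8.12 CPM to 48.9, 50.4, 41.8, 47.2 and 45.2 CPM (log2 2.30 ± 0.13). The d6 and d10 groups were clearly apart for both. Cd3d was at 5.41, 5.00 and 5.33 CPM at d6 and at 14.7 to 26.4 CPM at d10, with a wider spread among d10 tumors than the other chains (log2 2.03 ± 0.21). Cd247 rose by 1.42 ± 0.13, from 4.64 to 5.14 CPM up to 11.8 to 14.5 CPM.

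The genes of the kinase and of the signal-tuning protein rose as well. Themis was at 3.85, 4.15 and 3.16 CPM at d6 and 15.1 to 18.7 CPM at d10 (log2 2.15 ± 0.15), and Zap70 at 6.17 to 6.72 CPM and then 15.9 to 25.5 CPM (log2 1.69 ± 0.19). Cd6 had the smallest called increase, 1.31 ± 0.20, from 4.88 to 5.67 CPM up to 9.71 to 15.9 CPM. Cd4 was not called. It was at 10.8, 9.11 and 10.1 CPM at d6 and at 7.20, 8.21, 6.24, 10.1 and 5.68 CPM at d10, a log2 difference of -0.39 ± 0.19 (adjusted p = 0.17), and the groups overlapped.

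Thus 9 of the 10 genes were called, all higher, where 7.45% of 16866 genes were called, 4.79% higher and 2.66% lower. In 9 of the 10 the groups did not overlap, against 28.5% of all genes. The members' median log2 fold change was 2.07 and that of all genes tested 0.03. Within the library set shared by both days (d10 replicates 1 to 3) 9 genes were called as well, with Cd8b1 at 3.10, Cd8a at 3.08 and Cd3e at 2.06. Cd4 in that set was at -0.45 (adjusted p = 0.045), which is past the adjusted p but not beyond 1.

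Untreated d14 tumors had less of every member than untreated d10 tumors. Cd8b1 was at 18.0, 10.7 and 22.1 CPM at d14, below every d10 tumor, and fell by 1.41 on the log2 scale (SE 0.23, adjusted p = 0.0071). Cd247 was at 6.15, 3.48 and 6.98 CPM (log2 -1.25 ± 0.22, adjusted p = 0.0082). Both groups of tumors were separate for these genes, and replicate 2 of untreated d14 was the lowest of its group for all 10 genes. Cd4 was at 3.19, 2.08 and 4.57 CPM (log2 -1.20 ± 0.28, adjusted p = 0.019), Cd3d at 10.3, 6.02 and 12.2 CPM (log2 -1.16 ± 0.26) and Zap70 at 10.3, 5.35 and 12.5 CPM (log2 -1.12 ± 0.28).

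The other 5 genes passed the adjusted p without reaching the fold threshold. Cd3e, at 30.0, 21.3 and 36.0 CPM at d14, differed by -0.99 ± 0.15 (adjusted p = 0.0066), and Cd8a, at 42.1, 27.6 and 51.4 CPM, by -0.73 ± 0.19 (adjusted p = 0.027). Cd6, Themis and Cd3g lay between, at -0.91, -0.80 and -0.78. The 5 called genes compare with 7.23% of all genes called, 3.78% higher and 3.45% lower, and the groups did not overlap for 10 of 10 members, against 28.3% of all genes. The count was sensitive to single tumors. It was 3 without untreated d14 replicate 1, 2 (Cd247 and Cd8b1) without replicate 2 and 8 without replicate 3, and it was 3 with only d10 replicates 1 to 3 and 7 with only d10 replicates 4 and 5.

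Markers of some other cell types moved with these genes between untreated d10 and d14, while the cDC1 dendritic cell list did not. The macrophage list (6 genes) summed to 866 to 1456 CPM at d10 and 366 to 685 CPM at d14, with 2 of 6 genes called lower and a median log2 fold change of -0.84. The NK cell list summed to 15.2 to 28.6 CPM and 6.53 to 12.0 CPM, with 1 of 4 tested genes called lower. Klra8 was at 0 in every tumor. The cDC1 list had a median log2 fold change of 0.34, with 4 of 6 genes higher and 1 called lower. The plasmacytoid dendritic cell and B cell lists had medians of -0.44 and -1.48, with 1 of 5 and 0 of 5 genes called lower. The part of these cells in the change of the T cell genes was not tested.

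Against d6, untreated d14 tumors still had more CD8 and CD3 transcripts and less Cd4. Cd8a was higher by 2.46 ± 0.20 on the log2 scale (adjusted p = 5.3e-05), Cd8b1 by 1.83 ± 0.24, Cd3g by 1.51 ± 0.19, Themis by 1.35 ± 0.25 and Cd3e by 1.11 ± 0.17. Cd4 was lower by a log2 fold change of -1.59 ± 0.26 (adjusted p = 0.0011). Cd3d was at 0.87 ± 0.24 (adjusted p = 0.014), and Zap70, Cd6 and Cd247 were at 0.57, 0.41 and 0.17 with adjusted p of 0.11, 0.14 and 0.58. This made 5 genes called higher and 1 lower, against 10.2% and 8.81% of all genes, 19.0% in all. Groups did not overlap for 7 genes, against 61.1% of all genes.

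At d14, all 10 genes were higher in treated than in untreated tumors, with no overlap between groups for any of them. Non-overlap was also found for 51.9% of all genes. Cd4 was at 9.04, 10.2 and 8.13 CPM in treated tumors and 3.19, 2.08 and 4.57 CPM in untreated ones (log2 1.50 ± 0.27, adjusted p = 0.0084). Cd6, at 17.4, 21.7 and 16.3 CPM against 7.76, 4.81 and 8.15 CPM, was higher by 1.45 ± 0.22 (adjusted p = 0.0058). These values were the highest of any group for Cd6, and for Cd4 they were near those of d6.

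Zap70 (21.6, 22.3 and 19.5 CPM when treated) was higher by 1.20 ± 0.27, Cd247 (13.1, 12.2 and 11.2 CPM) by 1.17 ± 0.24, Themis (20.8, 19.5 and 18.3 CPM) by 1.09 ± 0.22 and Cd8b1 (38.0, 36.2 and 32.0 CPM) by 1.09 ± 0.24, all called. Cd3d, Cd3e, Cd8a and Cd3g differed by 0.98, 0.98, 0.95 and 0.90, with adjusted p of 0.018, 0.0077, 0.014 and 0.0099, just under the fold threshold. Treated tumors were at 76.7, 82.0 and 70.5 CPM of Cd8a and at 56.4, 55.7 and 56.7 CPM of Cd3e. The 6 called genes stand beside 11.5% of all genes called, 9.07% higher and 2.4% lower. The median of the 10 was 1.09, and that of all genes tested was -0.00.

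The count of 6 moved with single libraries, to 2 (Cd4 and Cd6) without untreated d14 replicate 2, and to 10 without untreated d14 replicate 3 or without treated d14 replicate 3. The macrophage list summed to 1063 to 1317 CPM in treated and 366 to 685 CPM in untreated d14 tumors, with 4 of 6 genes called higher (Csf1r, the CSF-1 receptor, at 1.50). The tumor marker list was at 1334 to 1517 CPM in treated and 1999 to 2038 CPM in untreated d14 tumors. By gene, 2 of its 5 genes were higher, 0 were called lower and 1 (Wt1, at 1.54) was called higher. Their part in the change of the members was not tested.

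**Figure D2:**
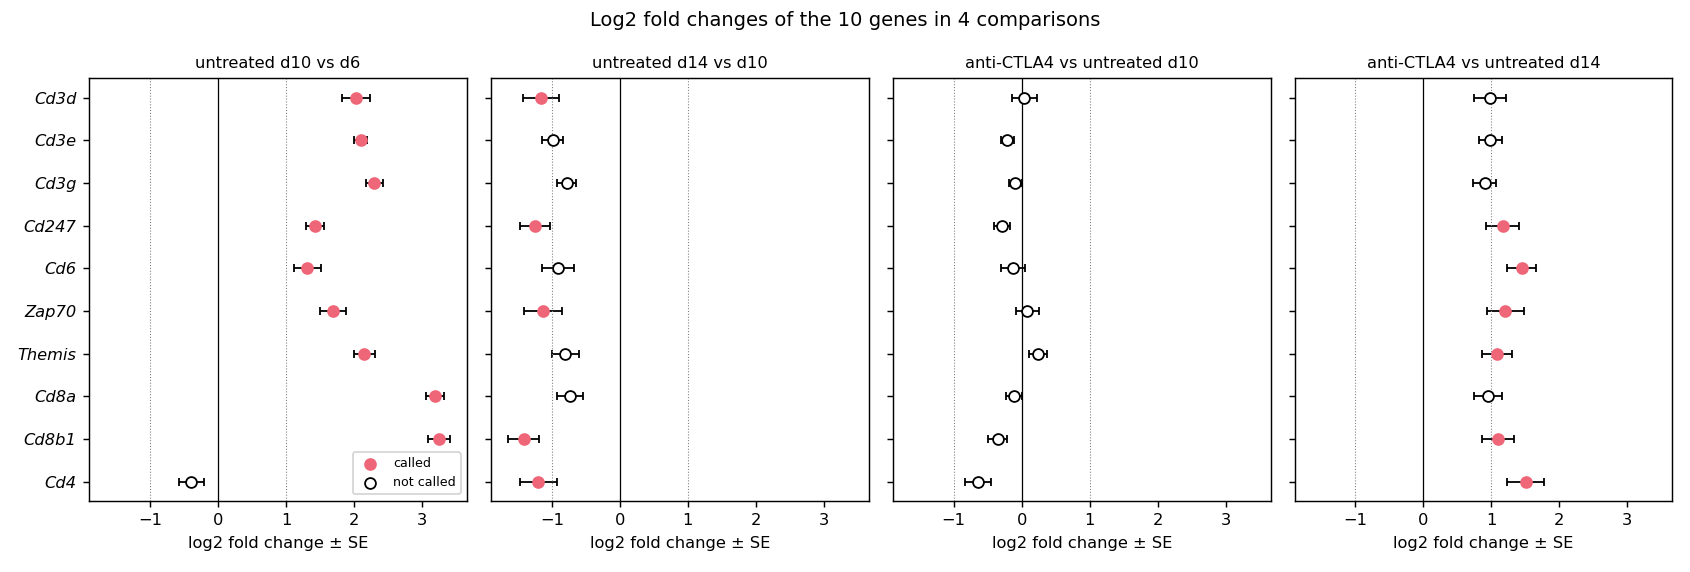
Log2 fold changes (horizontal axis) of the 10 genes (rows) in 4 comparisons; bars are SE, filled points are called and dotted lines mark a log2 fold change of 1 in either direction. At d10 against d6 all genes but Cd4 lie above 1, at untreated d14 against d10 all lie below 0, under treatment at d10 none is called, and under treatment at d14 all lie between 0.90 and 1.50.

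At d10, none of the 10 genes was called between treated and untreated tumors, where 0.0174% of all genes were called. Cd4 had the largest difference, with 5.17, 4.57 and 4.66 CPM in treated tumors, all below the 5 untreated tumors (log2 -0.64 ± 0.19, adjusted p = 0.26). Themis had the highest value, 0.24, and Cd3e, Cd8a and Cd8b1 lay below 0. DESeq2 also called 0 of the 10. By unadjusted p in edgeR, 3 of the 10 genes were under 0.05, against 13.5% of all genes, and the groups did not overlap for 2 genes, against 8.45% of all genes. Against untreated d10 replicates 4 and 5 alone, Cd4 was at -0.73 (adjusted p = 0.18), and against replicates 1 to 3 at -0.58 (adjusted p = 0.016). Replicates 1 to 3 lie in another library set than treated d10 (mitochondrial share 1.38% to 2.02% against 0.576% to 0.969%). The difference from them cannot be told apart from the set.

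The effect of treatment differed between d10 and d14 for most of these genes. The difference of the treatment effects, d14 minus d10, was tested as an interaction. Injection days of treated d10 tumors are not given, so day cannot be told apart from the number and timing of injections. The d10 and d14 tumors also lie in different library sets. Cd4 had the largest, 2.14 ± 0.34 (adjusted p = 0.0034), followed by Cd6 at 1.56 ± 0.30 (adjusted p = 0.0051), Cd247 at 1.45 ± 0.26 and Cd8b1 at 1.44 ± 0.28. Cd3e was at 1.18, Zap70 at 1.11 and Cd8a at 1.05. These 7 genes were called, against 11.8% of all genes called and 9.67% called higher, while Cd3g (0.98) and Themis (0.84) passed the adjusted p alone and Cd3d did not (0.93, adjusted p = 0.054). The count was 4 without untreated d14 replicate 2. It was 5 with only untreated d10 replicates 1 to 3, and 8 with only replicates 4 and 5, which are nearer to the treated d10 libraries in the mitochondrial share of reads.

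Between treated d14 and treated d10 tumors none of the 10 genes was called, against 11.5% of all genes (9.0% higher and 2.48% lower), but Cd4 was higher at d14 by 0.94 ± 0.13 (adjusted p = 0.00084) and Cd6 by 0.66 ± 0.11 (adjusted p = 0.0022). Cd8a was at 0.32 and Cd3d at -0.22, both past the adjusted p. The groups did not overlap for 5 of the 10 genes, against 59.8% of all genes. Against untreated d10 tumors, treated d14 tumors had no called member, against 7.83% of all genes (5.34% higher and 2.49% lower), with values from -0.38 (Cd8b1, adjusted p = 0.078) to 0.47 (Cd6, adjusted p = 0.096), and 1 of 10 genes had groups that did not overlap, against 34.1% of all genes. The unadjusted p was under 0.05 for 5 and 2 of the 10 genes in these contrasts, against 54.9% and 41.3% of all genes. DESeq2 called 0 in each, and both contrasts cross library sets.

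The Cd8a to Cd4 ratio, taken from counts of the same library and so free of depth, separated d6 from all other groups. It was 0.676, 0.843 and 0.727 at d6, where Cd4 reads outnumbered Cd8a reads. At d10 it was 7.90, 8.34, 9.74, 7.73 and 12.2, and at d14 it was 13.2, 13.3 and 11.2. The d10 mean was 12.1-fold the d6 mean on the log scale (log2 difference 3.60, exact permutation p = 0.0179, the smallest that 3 against 5 tumors allow, adjusted p = 0.0833 over 28 ratio tests). Untreated d14 overlapped d10 (log2 difference 0.47, exact p = 0.0536, adjusted p = 0.133).

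Treated tumors lay on opposite sides of untreated tumors on the 2 days. Treated d10 tumors had ratios of 13.5, 12.6 and 12.5, above all 5 untreated d10 tumors (log2 difference 0.51, exact p = 0.0357, adjusted p = 0.125). Treated d14 tumors had ratios of 8.48, 8.04 and 8.67, below all untreated d14 tumors (log2 difference -0.58, exact p = 0.1, the smallest that 3 against 3 allow, adjusted p = 0.133). The difference between these effects was -1.09 on the log2 scale. Permuting treatment within day over all 1120 arrangements gave an exact two-sided p = 0.00179 (adjusted p = 0.00476 over 4 ratios). This test was added after seeing the data. Of the 28 ratio tests between groups, 0 had an adjusted p below 0.05. The permutation assumes no treatment effect on either day, so it does not test equal effects on both days. The difference was -0.98 with only untreated d10 replicates 4 and 5 and -1.15 with only replicates 1 to 3. Each had an exact p = 0.005, the smallest that these subsets allow. At d14 the log2 fold change of treated against untreated tumors was 1.50 for Cd4 and 0.95 for Cd8a.

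**Figure D3:**
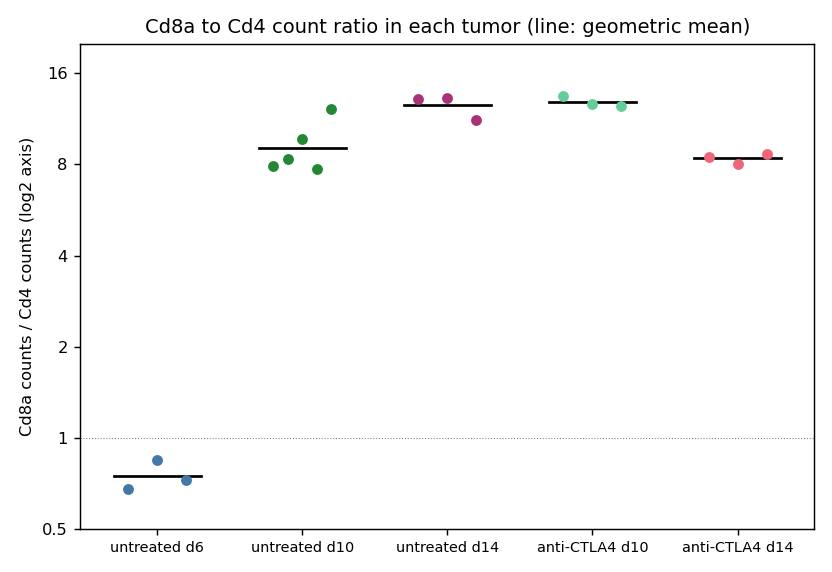
Cd8a counts divided by Cd4 counts in each tumor (vertical axis, log2 scale) by group; lines are geometric means and the dotted line marks equal counts. The 3 untreated d6 tumors lie under 1, all other tumors lie between 7.73 and 13.5, and treated tumors are above untreated ones at d10 and below them at d14.

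Over all 17 tumors, d6 included, the level of Cd4 did not follow the T cell genes. At d10 against d6 Cd4 was at -0.39 and the median of the 10 genes at 2.07. In contrasts without d6 it moved in their direction, at -1.20 with a median of -1.06 for untreated d14 against d10. Under treatment at d14 Cd4 was at 1.50 and the median at 1.09. Across the 17 tumors Pearson's r of log2 CPM between Cd4 and the other 9 genes ran from -0.20 to 0.31 (median -0.02), while the 36 pairs among the other 9 genes ran from 0.82 to 0.99 (median 0.94). These are descriptions over tumors that share groups and library sets. The genes most like Cd4 over the same tumors were Ctse (r = 0.96), Tlr1, Plcg2, Themis2 and Sgk3. Those most like Cd3e were Cd96 (r = 0.98), Trac, Ctsw, Cd27 and Nrn1. Cxcr6 was most like Cd8a, and Cd96, Hal and Klrc1 were also among the genes closest to it. Prf1, which encodes perforin, was most like Themis (r = 0.98), and Prkch, Cd96 and Sh2d2a were also among the closest.

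The ratio of Cd4 to Cd3e counts showed the same tumors from another side. It was 0.733 ± 0.053 (SD, n = 3) at d6, 0.130 ± 0.024 (n = 5) at untreated d10, 0.110 ± 0.015 (n = 3) at untreated d14, 0.0970 ± 0.0032 (n = 3) at treated d10 and 0.162 ± 0.020 (n = 3) at treated d14. The d10 and d6 groups did not overlap (log2 difference -2.52, exact p = 0.0179, adjusted p = 0.0833). In summed CPM, lists for the dendritic cells that can carry CD4 or CD8α were highest at d6, while the macrophage list was not. By gene, at d10 against d6, 0 of 5 plasmacytoid and 1 of 5 tested cDC1 genes were called lower. Their median log2 fold changes were -0.48 and -0.38, with 1 gene higher in each list. The plasmacytoid dendritic cell list (5 genes) summed to 449 to 567 CPM at d6 and 173 to 361 CPM elsewhere, and the cDC1 dendritic cell list (6 genes) to 159 to 249 CPM at d6 and 60.4 to 94.7 CPM elsewhere. The macrophage list summed to 845 to 950 CPM at d6, 866 to 1456 CPM at untreated d10 and 1063 to 1317 CPM at treated d14. Their part in the Cd4 values was not tested.

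The ratio of the 2 CD8 chains was lower in d14 tumors. Cd8b1 counts per Cd8a count were 0.695, 0.593 and 0.652 at d6 and 0.588 to 0.728 at untreated d10, and the groups overlapped. At untreated d14 the ratio was 0.389 to 0.430, below every d10 tumor (log2 difference -0.69, exact p = 0.0179, adjusted p = 0.0833). Treated d10 tumors had 0.550 to 0.581 and treated d14 tumors 0.442 to 0.496, below and above the untreated tumors of their day. The difference of the 2 treatment effects was 0.39 (exact p = 0.00268, adjusted p = 0.00476, by the same permutation of treatment within day). The lower ratio at d14 cannot be told apart from the library set.

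**Figure D4:**
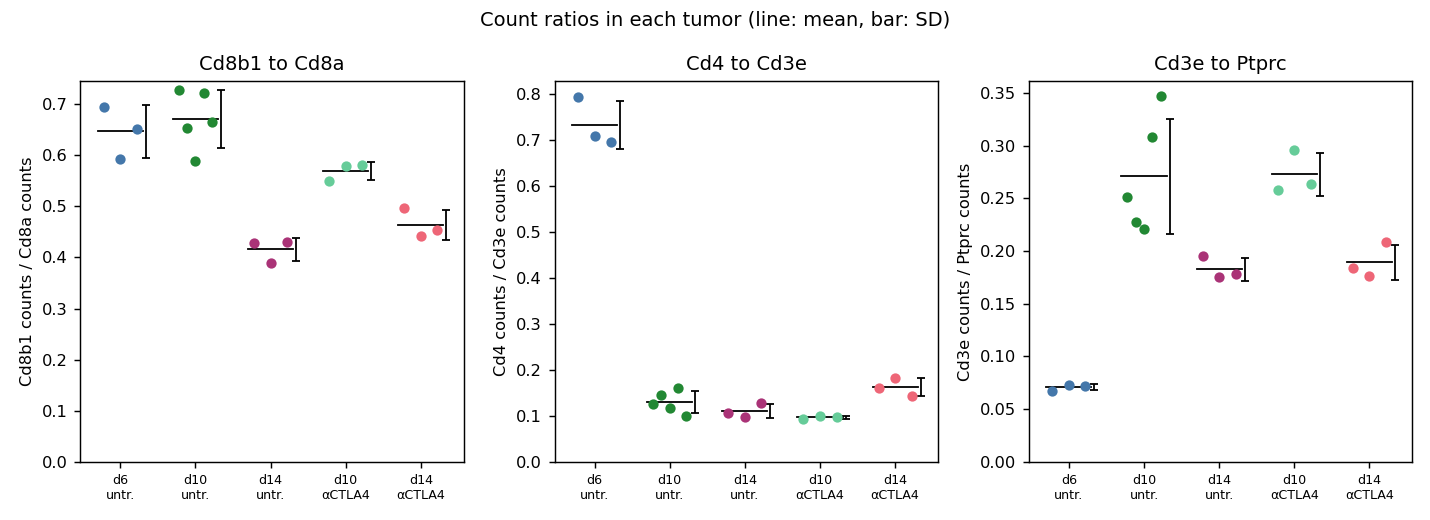
Ratios of counts (vertical axes, from 0) in each tumor by group for Cd8b1 to Cd8a, Cd4 to Cd3e and Cd3e to Ptprc; lines are means and bars are SD. Cd8b1 to Cd8a is lowest in d14 tumors, Cd4 to Cd3e is highest at d6, and Cd3e to Ptprc overlaps between treated and untreated d14 tumors.

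Relative to Ptprc, which encodes the pan-leukocyte phosphatase CD45, Cd3e was high at d10 on both arms and did not separate treated from untreated d14 tumors. The Cd3e to Ptprc ratio was 0.0707 ± 0.0030 at d6, 0.271 ± 0.055 at untreated d10 and 0.273 ± 0.021 at treated d10. It was 0.195, 0.175 and 0.178 in untreated d14 tumors and 0.183, 0.176 and 0.208 in treated d14 tumors, which overlapped. Ptprc itself was at 0.94 ± 0.17 (log2, adjusted p = 0.0088) between treated and untreated d14 tumors, close to the 0.98 of Cd3e. No test was made of this ratio. Trdc, the δ chain constant gene, was 0.182 of Trac, the α chain constant gene, at d6 and 0.0214 to 0.0364 in the group means afterwards.

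Per kilobase of exon, with all annotated exons of a gene merged, Cd8b1 was highest at untreated d10 (mean 30.3 CPM per kb). Cd8a (18.3), Cd3g (14.3) and Cd3e (14.1) followed, and Cd4 was at 1.86. The order depends on these lengths, which were 1483 bases for Cd8b1 and 3637 for Cd8a. Without division by length, Cd8a was above Cd8b1 at untreated d10 (means of 66.7 and 44.9 CPM). At d6 Cd3e was at 3.34, Cd8b1 at 3.24, Cd4 at 2.48 and Cd8a at 2.04 CPM per kb, and the lowest members were Cd247 (0.933), Cd6 (0.662) and Themis (0.318). Cd247 was low throughout, at 0.933 to 2.46 CPM per kb. By mean CPM, untreated d6 and untreated d14 were the lowest groups for all genes but Cd4, in that order, with ranges that overlapped for Cd247, Cd6 and Zap70. For Cd4 the order ran from untreated d14 and treated d10 through untreated d10 to treated d14 and untreated d6, and neighbours among the last 3 overlapped.

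The other genes of the pathway were read from lists of TCR constant regions (5 genes), proximal kinases and adaptors (16 genes) and restraining genes (14 genes), 35 in all. At d10 against d6, 11 were called higher and none lower, where 4.79% of all genes were called higher and 2.66% lower. Among the constant regions Trac rose by 1.92 ± 0.13, with Trbc1 at 1.34 and Trbc2 at 1.26, while Trdc and Tcrg-C1 were at -0.40 and -0.22 and not called. Among kinases and adaptors 4 of 16 were called, namely Grap2 (1.85), an adaptor of LAT, Skap1 (1.50), the scaffold Lat (1.32) and Lck (1.30). Lcp2, which encodes SLP-76 and is also used by myeloid cells, was at -0.28 and not called.

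At d10, 4 of 14 restraining genes were called higher, which were Sit1 (1.59), Ubash3a (1.59), Sla2 (1.08) and Pag1 (1.01). At untreated d14 against d10, 13 of the 35 were called lower and none higher, where 3.45% of all genes were called lower and 3.78% higher. The called genes included Lat (-1.53), Skap1 (-1.24) and Lck (-1.20), 4 of 5 constant regions with Tcrg-C1 at -2.11 and Trdc at -1.99, and Dok2 (-1.20), Ubash3a (-1.15), Cd5 (-1.05) and Ptpn6 (-1.01). Without untreated d14 replicate 2 the count was 6.

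Under anti-CTLA4 at d14, 17 of the 35 were called higher and none lower (9.07% and 2.4% of all genes), 10 of them kinases and adaptors. Trat1, a transmembrane TCR adaptor, was at 1.92 ± 0.52, Lat at 1.25 ± 0.24 and Lck at 1.10 ± 0.18. Of the restraining genes, Cd5 (1.37), Ubash3a (1.36), Sit1 (1.14), Dok2 (1.10) and Sla2 (1.03) were called, and of the constant regions Tcrg-C1 (1.91) and Trdc (1.28). Without untreated d14 replicate 2 the count was 8. Plcg1, Nck1 and Cblb, which many cell types express, and Ptpn22 were between -0.05 and 0.15 and not called.

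At d10 under treatment none of the 35 was called by edgeR and 1 was called by DESeq2. By unadjusted p in edgeR, 14 of the 35 were under 0.05, against 13.5% of all genes. Of the 35 genes 8 were higher, with a median log2 fold change of -0.21, against -0.01 for all genes tested. The difference of treatment effects between d14 and d10 was called for 22 of the 35, all higher, against 9.67% of all genes called higher and 2.15% lower, with Trat1 at 2.81, Lat at 1.74, Tespa1 at 1.73 and Ubash3a at 1.62. Trat1 (1.97) and Tespa1 (1.18) were the only ones of the 35 called between treated d14 and treated d10 tumors, and Trat1 (1.01) was the only one against untreated d10 tumors.

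**Figure D5:**
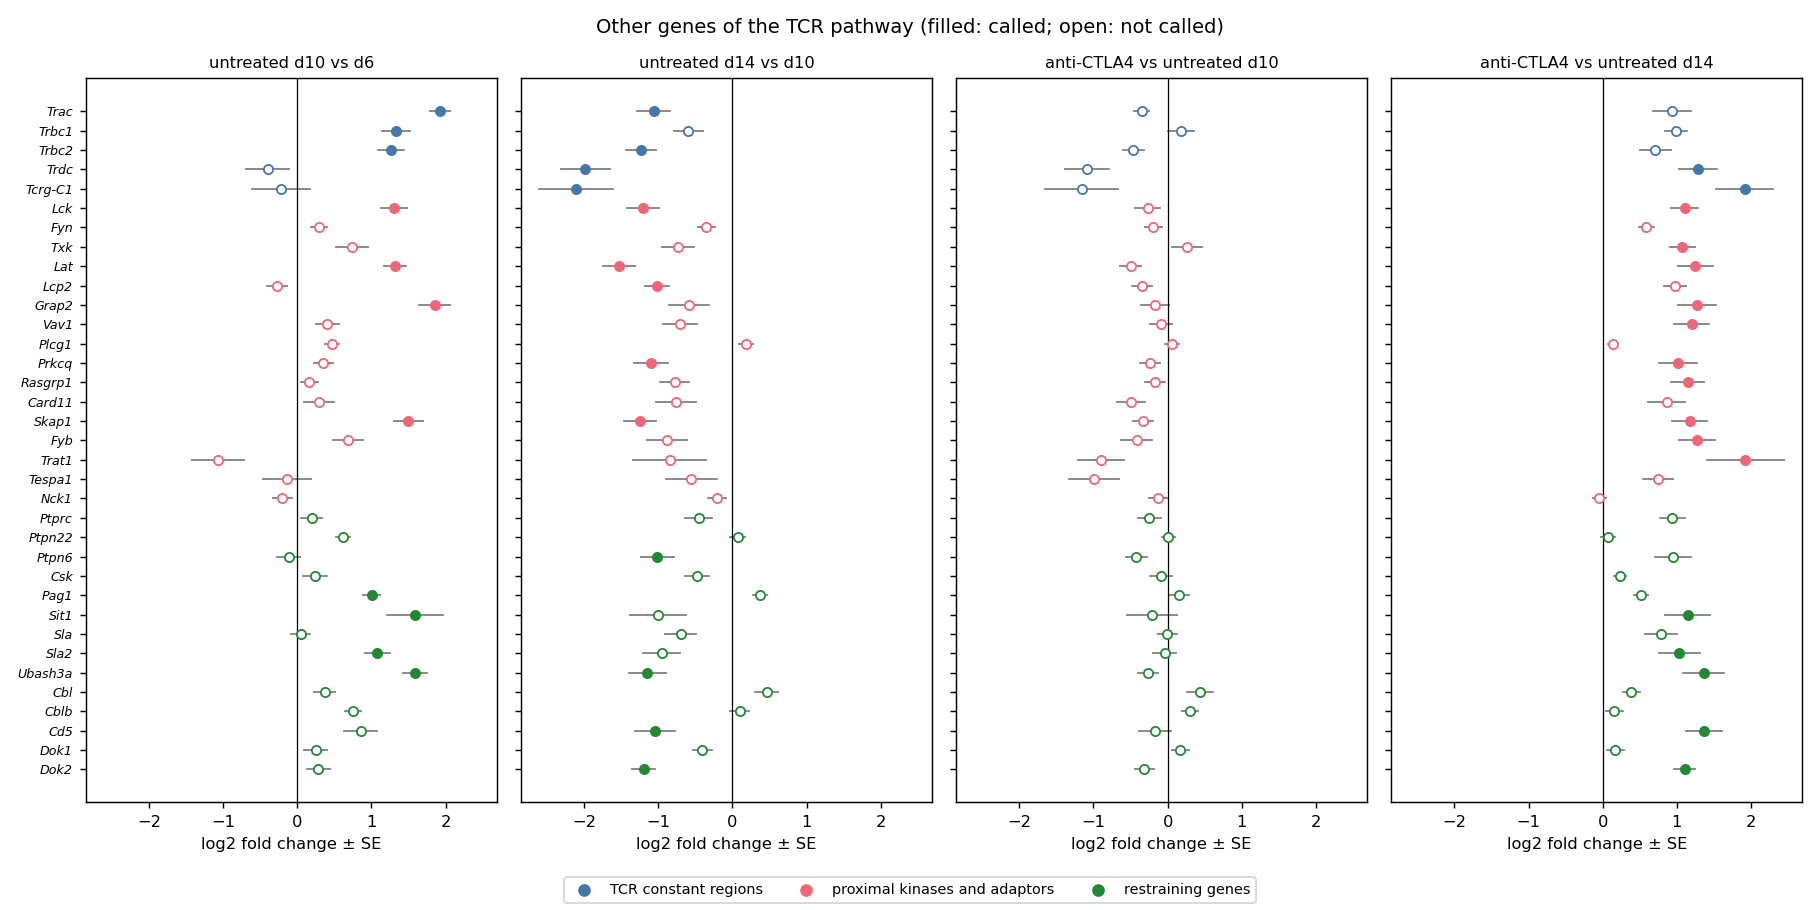
Log2 fold changes (horizontal axis, bars are SE) of 35 further TCR pathway genes (rows) in 4 comparisons, coloured by list; filled points are called. Called genes are all higher at d10 against d6 (11 genes), all lower at untreated d14 against d10 (13 genes), absent under treatment at d10 and all higher under treatment at d14 (17 genes).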

How the data were processed

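Total RNA of AB12 tumors, from independent mice per the study's methods, was made into libraries with the KAPA RNA HyperPrep kit and sequenced paired-end. Per the submitters' processing notes and the study's methods, the authors aligned reads to GRCm38 with TopHat2 (2.0.14), kept uniquely mapped reads and made the deposited counts per Gencode vM21 gene with HTSeq. The strand setting is not given in the sources used here, and 20211 genes were at 0 in every library. The deposited counts (55450 genes, 17 libraries) were used as they stand, without the authors' removal of batch-associated genes. All 55450 identifiers matched vM21.

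Groups came from the labels. Each comparison was fitted on its own groups with edgeR (4.0.16) in R (4.3.3), by its quasi-likelihood test after the filterByExpr filter and TMM scaling, with Benjamini-Hochberg adjustment over all tested genes and a call at adjusted p below 0.05 and a log2 fold change beyond 1. The treatment-by-day interaction used both days. SE of a log2 fold change was derived as its absolute value divided by the square root of the quasi-likelihood F statistic. CPM values were scaled by TMM over all libraries. Ratios used raw counts and exact two-sided permutation tests of the mean log2 ratio. Correlations used log2(CPM + 1) for genes with a mean of at least 1 CPM, and genes among the 5 most like Cd3e, Cd4, Cd8a and Themis were named. Some genes of the lists and of these rankings are not reported here. The script was tested on simulated data. Members, lists, comparisons and named genes were chosen with earlier results of these data known, and the permutation test of the treatment effect on ratios between days was added after seeing the data. Alternatives were DESeq2 (1.42.0), library size without TMM, no low-count filter or at least 10 counts in every library, a replicate block, subsets of untreated d10 and leaving out each tumor. No replicate pair agreed within sampling noise. Same-numbered tumors did not deviate together, so numbers were not taken to pair tumors.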

Additional observations from a re-analysis of the deposited data

Results flagged for a closer look

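The effect of anti-CTLA4 differed between d14 and d10 by a test of the difference itself for 9 of the 10 genes. As log2 differences of the treatment effect (d14 minus d10, edgeR quasi-likelihood interaction with Benjamini-Hochberg adjustment over all genes) these were 2.14 for Cd4 (adjusted p = 0.0034), 1.56 for Cd6 (0.0051), 1.45 for Cd247 (0.0044), 1.44 for Cd8b1 (0.0057), 1.18 for Cd3e (0.0036), 1.11 for Zap70 (0.034), 1.05 for Cd8a (0.011), 0.98 for Cd3g (0.0064) and 0.84 for Themis (0.04). At that adjusted p alone, without a fold threshold, 17.7% of all genes passed. Under the 22 alternatives the adjusted p of Zap70 ran from 0.010 to 0.084 and was 0.05 or more in 8 of them, and that of Themis ran from 0.011 to 0.10 and was 0.05 or more in 9. The treatment effect on ratios was compared between days by exact permutation of treatment within day, which assumes no effect on either day. That permutation was added after seeing the data, and 0 of the 28 ratio tests between groups had an adjusted p below 0.05. The Cd8a to Cd4 ratio differed by -1.09 (exact p = 0.00179). The Cd8b1 to Cd8a ratio differed by 0.39 (exact p = 0.00268) and the Cd4 to Cd3e ratio by 0.96 (exact p = 0.00357). Day cannot be told apart here from the number and timing of injections or from the library set. For the Cd8a to Cd4 ratio, all 3 treated tumors lay above the untreated tumors at d10 and all 3 lay below them at d14.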

How the results depend on the processing

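The call of 9 members at d10 against d6 was the same in number under every alternative run, as was the absence of calls under treatment at d10. At untreated d14 against d10 the 5 calls became 3 with a replicate block, 3 with only untreated d10 replicates 1 to 3, and 2 to 8 when single tumors were left out. Under treatment at d14 the 6 calls became 2 to 10 when single tumors were left out and 8 with a replicate block, and the 7 calls of the treatment-by-day difference became 4 to 10 and, with the block, 6. At treated d14 against treated d10 the count of 0 became 1 (Cd4, log2 1.06) with library size in place of TMM and 0 to 1 when single tumors were left out. The replicate block changed no other count of members by more than 1.5 times, and same-numbered tumors had deviations that correlated at -0.31 to 0.19, so the numbers did not pair them. The Cd8a to Cd4 difference between treated d14 and untreated d10 ran from -0.16 to 0.00031 when single tumors were left out, turning without untreated d10 replicate 5.

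Small differences that were not called changed sign. Under treatment at d10 these were Cd3d (-0.23 with untreated d10 replicates 4 and 5 only), Zap70 (-0.20 with the same), Cd6 (0.11 with the block and with replicates 1 to 3 only) and Cd8a (0.0056 with replicates 1 to 3 only). Zap70 was at 0.11 without TMM and 0.015 with at least 10 counts in every library at treated d14 against treated d10, and at -0.25 with replicates 4 and 5 only at treated d14 against untreated d10, where Cd3e was at 0.074 without TMM. Leaving out single tumors gave ranges that crossed 0 at treated d14 against treated d10 for Cd8b1 (-0.039 to 0.10), Zap70 (-0.052 to 0.053) and Themis (-0.068 to 0.14), and at treated d14 against untreated d10 for Cd3g (-0.0011 to 0.14) and Zap70 (-0.073 to 0.11). They did so too for Cd3d under treatment at d10 (-0.069 to 0.12), Cd247 at untreated d14 against d6 (-0.0086 to 0.42), the Cd8b1 to Cd8a ratio at d10 against d6 (-0.0084 to 0.11) and the Cd8a to Cd3e ratio under treatment at d14 (-0.079 to 0.042). The causes were not tested. Group sizes of 3 to 5 tumors, no statement of the sequencing run of each library, and the smallest exact p of 0.1 for ratios of 3 against 3 tumors limit these comparisons. Each member held at least 156 reads in every library.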
